A study of Rattus norvegicus with 12 samples.

Results

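The enzymes described here were 10 genes of glycolysis, Hk1, Hk2, Pfkl, Aldoa, Tpi1, Gapdh, Pgk1, Pgam1, Pkm2 and Ldha, looked up by symbol among the 16468 genes of 2 expression tables. The list was chosen by the values of the same knockdown contrasts that are described below, so its direction is a description and not a result. The RNA came from HCN cells, a cloned neural stem cell line of the adult rat hippocampus, kept either in FGF2 with BMP4, which gives quiescent cells (iQNP), or in FGF2 alone, which gives proliferating cells (TAP). In each condition, cells electroporated with a vector for a short hairpin RNA against the repressor REST (REST knockdown, 4 libraries) were set against cells electroporated with the empty vector (control, 2 libraries), so all 4 groups shared the electroporation and the vector backbone. The tables gave 1 value per gene and group, in FPKM (fragments mapped to a gene, scaled by its exon length and by the depth of the library), estimated by the authors from all libraries of a group together. No value of a single library was used, so no spread between libraries, no n and no test stands behind any difference below, and the tables give no depth for a library.

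Glycolysis splits glucose into pyruvate in the cytosol. Hexokinase (Hk1, Hk2) and phosphofructokinase (Pfkl) spend ATP and set the pace of the early steps. Aldolase (Aldoa) and triosephosphate isomerase (Tpi1) make and interconvert the 3-carbon sugars, glyceraldehyde-3-phosphate dehydrogenase (Gapdh) makes NADH, and phosphoglycerate kinase (Pgk1) and pyruvate kinase (Pkm2) return ATP. Phosphoglycerate mutase (Pgam1) and enolase act between these kinases, and lactate dehydrogenase (Ldha) turns pyruvate into lactate and regenerates NAD+. Proliferating neural progenitors are known to rely on glycolysis more than neurons do, and the messenger RNAs of these enzymes are known for the many processed pseudogenes that mammalian genomes carry of them.

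Of the 10 genes, 9 had a row in both tables and Hk1 was not analysed here. The row named Pgam1 covered only 322 bases of chromosome 6 (50613715 to 50614037 in the rn4 build of the tables), whereas RefSeq places the start of Pgam1 on chromosome 1 of GRCr8. It held 0.303 FPKM in iQNP REST knockdown and was listed at 0 in iQNP control, and held 0.235 FPKM in TAP REST knockdown and was listed at 0 in TAP control. It stayed under the minimum of 1 FPKM, taken as the mean of the 2 groups of a condition, and its values are not read as the level of Pgam1. The other 8 genes passed this minimum in both conditions. Differences are given as the plain ratio of 2 group values (fold) or as the log2 ratio of REST knockdown over control after adding 1 FPKM to each, and a gene is called higher or lower where that log2 ratio is at least 1 or at most -1, a fold of 2.

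The promoter windows that RefSeq gives for 4 of these genes are shown because they span the range of the differences below, with Pkm2 the largest, Gapdh and Ldha high and Hk2 on the other side of 0. Each runs 5′ to 3′ over 300 bases of GRCr8, 250 before the annotated start and 50 after it, and capitals mark ACGTG on either strand, the core letters of the hypoxia response element.
Pkm2 (Pkm in RefSeq), chr8:68953385-68953684 (+ strand): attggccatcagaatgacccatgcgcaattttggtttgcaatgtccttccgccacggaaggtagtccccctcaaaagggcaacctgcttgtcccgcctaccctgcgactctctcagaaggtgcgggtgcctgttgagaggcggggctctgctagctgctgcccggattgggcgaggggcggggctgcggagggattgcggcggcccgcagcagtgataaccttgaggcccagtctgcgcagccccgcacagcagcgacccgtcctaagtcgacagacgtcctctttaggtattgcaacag
Gapdh, chr4:159652418-159652717 (- strand): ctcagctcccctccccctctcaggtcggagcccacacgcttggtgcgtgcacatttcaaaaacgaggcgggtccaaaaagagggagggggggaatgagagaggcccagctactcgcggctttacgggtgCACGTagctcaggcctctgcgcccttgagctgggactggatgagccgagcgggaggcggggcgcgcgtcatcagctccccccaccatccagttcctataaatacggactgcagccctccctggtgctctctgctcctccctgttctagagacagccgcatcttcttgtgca
Ldha, chr1:106507842-106508141 (+ strand): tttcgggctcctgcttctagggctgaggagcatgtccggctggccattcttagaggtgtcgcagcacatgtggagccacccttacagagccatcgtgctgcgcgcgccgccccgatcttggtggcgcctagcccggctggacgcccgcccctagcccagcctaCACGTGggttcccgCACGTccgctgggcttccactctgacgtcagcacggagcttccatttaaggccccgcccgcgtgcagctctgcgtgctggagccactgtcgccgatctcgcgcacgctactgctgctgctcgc
Hk2, chr4:116841226-116841525 (- strand): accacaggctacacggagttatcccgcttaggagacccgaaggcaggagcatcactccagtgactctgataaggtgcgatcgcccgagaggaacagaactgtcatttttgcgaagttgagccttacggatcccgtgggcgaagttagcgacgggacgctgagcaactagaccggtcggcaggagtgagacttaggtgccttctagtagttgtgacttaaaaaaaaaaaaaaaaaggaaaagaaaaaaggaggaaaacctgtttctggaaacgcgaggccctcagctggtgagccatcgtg
The Ldha window held 3 matches, which began 87, 86 and 73 bases before the start, and the first pair overlapped as CACGTG, which reads the same on both strands. The Gapdh window held 1 match, 121 bases before the start. The windows of Pkm2 and Hk2 held none. RefSeq had windows for 9 of the 10 genes, 12 in all because some genes have several starts, and Aldoa, Gapdh, Hk1, Ldha and Pgam1 had a match in 1 window each. Counted by window this was 5 of 12 (41.7%), against 19.8% of the 21851 windows of protein-coding genes. Of the 5, those of Hk1 and Pgam1 belong to genes with no difference read here. The share therefore does not describe the genes called higher. The short motifs GGACAG and CAGCACC, parts of the RE1 element that REST is known to bind, were searched on both strands in the same way. GGACAG was in 22.2% of all windows and in that of Pfkl alone among these genes, 5 bases before its start, and CAGCACC was in 7.08% of all windows and in 1 of the 2 windows of Hk1. Neither overlaps ACGTG in its letters. These matches describe letters in the windows and say nothing of binding, and longer distances were not searched.

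Rest itself (chromosome 14, 33136045 to 33151142) stood at 13.9 FPKM in iQNP REST knockdown and 48.7 FPKM in iQNP control, 71.5% lower, and at 9.002 FPKM in TAP REST knockdown and 27.8 FPKM in TAP control, 67.6% lower. The knockdown groups were therefore the low ones for Rest in both tables. As these are bulk RNA samples, fewer cells of a type and less RNA per cell cannot be told apart. The neural stem cell markers Vim, Sox2, Nes and Fabp7 were at 87.7 FPKM or more in all 4 groups and Notch1 at 20.2 FPKM or more. Others of that list were low, with Pax6 between 1.31 and 4.69 FPKM and Hes5 at 2.29 FPKM or below, Msi1 and Hes1 were called higher in TAP (log2 ratios 1.26 and 1.37), and Sox1 and Sox9 were not analysed here. The part of these changes in the differences below was not tested. The summed level of 6 microglia and leukocyte markers was between 2.81 and 3.93 FPKM. Summed endothelial markers reached at most 0.404 FPKM. Of the neuron markers, Tubb3 was called higher and Map2 and Syt1 lower in both conditions, and their part in the differences below was not tested. Of the oligodendrocyte markers, Sox10 (348 to 615 FPKM) was present while Mog and Mag stayed at 0.442 FPKM or below. Summed FPKM over all genes was 1058055 in iQNP REST knockdown and 734692 in iQNP control, and 1014737 in TAP REST knockdown and 665644 in TAP control. The 77 cytosolic ribosomal protein genes held 25.6% of it in iQNP REST knockdown and 6.45% in iQNP control, and 34.7% in TAP REST knockdown and 10.6% in TAP control. Their part in the differences below was not tested.

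In iQNP cells Tpi1, Gapdh, Pgk1, Pkm2 and Ldha stood several fold higher after REST knockdown and Aldoa 2.09-fold. Hk2 and Pfkl did not reach the called fold. Of the 8 genes that passed the minimum, 6 were called higher (Aldoa, Tpi1, Gapdh, Pgk1, Pkm2 and Ldha), against 14.4% of 9586 genes, and none was called lower, against 3.15%. In TAP cells 5 of the 8 were called higher, against 15.4% of 9309 genes, and none lower, against 6.82%, with Aldoa short of the call. The iQNP call of Aldoa ended under each of 3 other scalings of the groups, and the TAP call of Pgk1 ended with the groups at the same summed FPKM. Since the list was chosen by these contrasts, nothing is read from the counts against those shares. The median log2 ratio over the 9 genes with a row was 2.21 in iQNP and 1.39 in TAP (2.40 and 1.91 over the 8 that passed the minimum), and that over all genes passing the minimum was 0.00 in iQNP and 0.01 in TAP. The 9 rows together held 0.82% of the summed FPKM in iQNP REST knockdown and 0.204% in iQNP control, and 0.562% in TAP REST knockdown and 0.184% in TAP control.

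**Figure D1:**
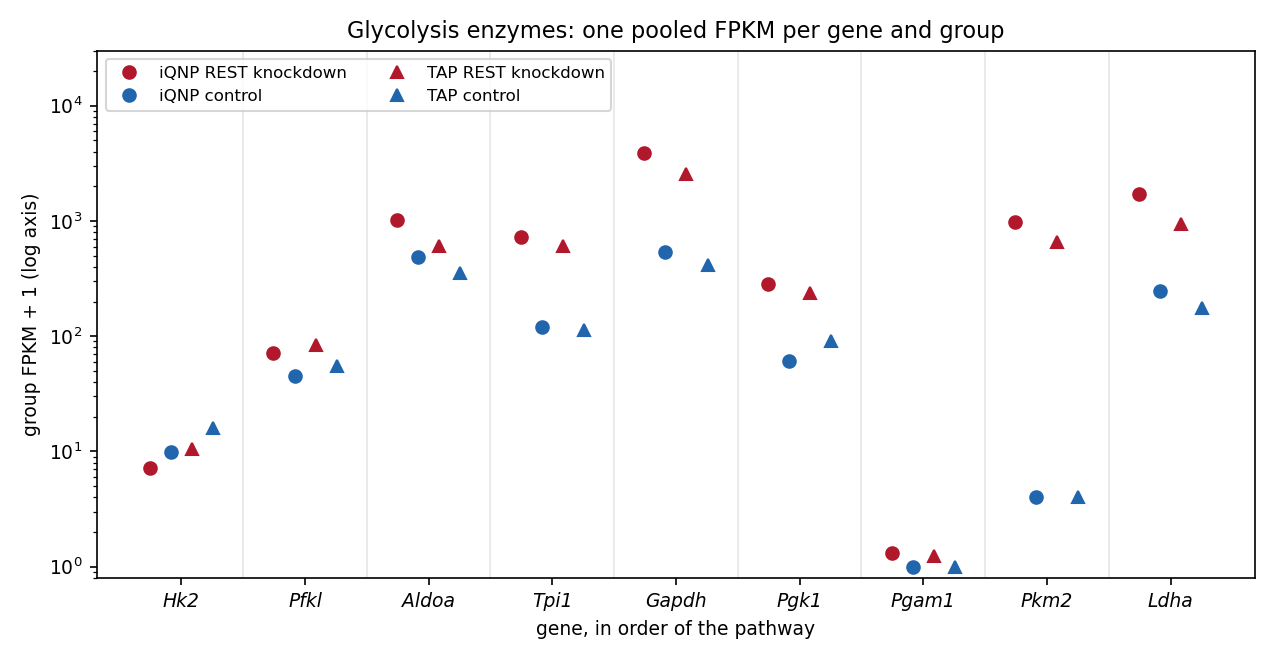
Group FPKM plus 1 (log axis) of the 9 genes with a row, in order of the pathway. Red marks are REST knockdown and blue marks control, circles iQNP and triangles TAP, each mark 1 pooled value with no error. The red marks lie above the blue ones for every gene except Hk2, and Pkm2 has the widest gap, 973 against 3.02 FPKM in iQNP.

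Among these 8 genes the entry steps gave the lowest ratios. Hk2 (chromosome 4, 116925724 to 116975211), the inducible hexokinase that traps glucose as its phosphate, was at 6.15 FPKM in iQNP REST knockdown and 8.84 FPKM in iQNP control, 30.4% lower. In TAP cells it was at 9.47 FPKM in REST knockdown and 14.9 FPKM in control, 36.4% lower. Neither difference reached the call, though the TAP one did with the groups at the same summed FPKM (log2 ratio -1.14), and Hk2 was the only one of the 8 genes below its control in both conditions. Pfkl (chromosome 20, 11009358 to 11032511), the liver type of phosphofructokinase, the main regulated step, was at 70.3 FPKM in iQNP REST knockdown and 44.3 FPKM in iQNP control (1.59-fold). It was at 83.1 FPKM in TAP REST knockdown and 54.1 FPKM in TAP control (1.53-fold). Pfkl was above control in both conditions by less than the called fold, and with the groups scaled to the same summed FPKM its log2 ratio was 0.14 in iQNP and 0.01 in TAP.

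The enzymes of the 3-carbon sugars followed. Aldoa (chromosome 1, 185970657 to 185975486), which splits fructose bisphosphate, was at 1017 FPKM in iQNP REST knockdown and 486 FPKM in iQNP control (2.09-fold). It was at 608 FPKM in TAP REST knockdown and 356 FPKM in TAP control (1.71-fold, log2 ratio 0.77, not called). The iQNP call rested on a log2 ratio of 1.06, close to the threshold, and was lost when the groups were scaled to the same summed FPKM (0.54), to that sum without ribosomal protein genes (0.87) or to the same median (0.97). Its rank among the 16468 genes by FPKM was 162 in both iQNP groups. Tpi1 (chromosome 4, 160931692 to 160936871) was at 722 FPKM in iQNP REST knockdown and 119 FPKM in iQNP control (6.06-fold), and at 609 FPKM in TAP REST knockdown and 112 FPKM in TAP control (5.46-fold). The tables gave the same interval to Spsb2, with log2 ratios of 1.83 in iQNP and 1.82 in TAP, so reads of these overlapping genes may be assigned to either and both are uncertain.

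The oxidising step and both ATP-yielding steps came next, and among them the difference of Pgk1 was smaller than that of Tpi1 in both conditions. Gapdh (chromosome 4, 161282214 to 161286087), often used as a loading reference, was at 3891 FPKM in iQNP REST knockdown and 532 FPKM in iQNP control (7.31-fold). It was at 2549 FPKM in TAP REST knockdown and 418 FPKM in TAP control (6.11-fold). It held the highest level of these enzymes in each of the 4 groups, ranking 37 in iQNP REST knockdown and 143 in iQNP control. Pgk1 (chromosome X, 94324218 to 94340193), the first of the ATP-yielding kinases, was at 284 FPKM in iQNP REST knockdown and 60.5 FPKM in iQNP control (4.69-fold). It was at 237 FPKM in TAP REST knockdown and 89.7 FPKM in TAP control (2.65-fold), and this call ended with the groups at the same summed FPKM (log2 ratio 0.79). Pkm2 (chromosome 8, 63486491 to 63508016), the pyruvate kinase gene that RefSeq now calls Pkm, was at 973 FPKM in iQNP REST knockdown and 3.02 FPKM in iQNP control (322-fold). It was at 662 FPKM in TAP REST knockdown and 3.05 FPKM in TAP control (217-fold). In rank by FPKM it stood at 172 in iQNP REST knockdown and 8547 in iQNP control, and at 197 in TAP REST knockdown and 8202 in TAP control. The other pyruvate kinase gene, Pklr, was at 0.137 FPKM or below in all 4 groups. The summed pyruvate kinase FPKM in the control groups was thus 3.08 in iQNP and 3.11 in TAP, beside 532 and 418 FPKM of Gapdh. RefSeq names 19 pseudogenes after Pkm2, and such copies may take or share its reads. These sums are therefore not read as the pyruvate kinase level of the cells.

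Ldha (chromosome 1, 97403076 to 97412547) closed the pathway with 1713 FPKM in iQNP REST knockdown and 245 FPKM in iQNP control (6.995-fold), and 948 FPKM in TAP REST knockdown and 175 FPKM in TAP control (5.41-fold). It was second to Gapdh in both knockdown groups. In both control groups Aldoa took that place, and Ldha, Tpi1, Pgk1, Pfkl, Hk2 and Pkm2 followed in this order. The steep end of the order in control was Pkm2, which was below Hk2 in both control groups and above it in both knockdown groups. This placing rests on the listed FPKM of Pkm2, which may not measure its RNA alone.

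All 8 genes that passed the minimum had a greater log2 ratio in iQNP than in TAP, Hk2 included, where the iQNP value was the less negative. The difference, iQNP minus TAP, ranged between 0.04 for Pfkl and 0.82 for Pgk1 with a median of 0.28, beside a median of 0.00 over 9174 genes, of which 50.4% had the greater ratio in iQNP. Pkm2 (0.56), Ldha (0.37) and Aldoa (0.29) came after Pgk1. Of Pgk1, the difference came with a control level that was lower in iQNP (60.5 FPKM) than in TAP (89.7 FPKM) and a knockdown level that was higher in iQNP (284 FPKM) than in TAP (237 FPKM), although the tables were normalised separately and levels set across them are not strictly comparable. These differences have no test, and under the scaling that left ribosomal protein genes out the smallest of the 8 was 0.00. The list was chosen by these contrasts, so nothing is read from all 8 going one way. Over all genes, the medians of those with pseudogenes named in RefSeq, given below by number, were also greater in iQNP. That of genes with none was not (-0.04 in iQNP and -0.02 in TAP). Among genes with a mean of at least 50 FPKM, however, it too was greater in iQNP (0.07, against -0.12 in TAP). The part of the copies in the difference between the conditions was not tested.

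Isoenzymes of the same steps, from a list of 21 other glycolysis genes written with earlier results known, varied among themselves. Of the 11 that passed the minimum in iQNP, 1 was called higher and none lower, and of the 10 that passed in TAP, 2 were called higher and none lower, with medians of 0.28 and 0.22, beside 14.4% and 15.4% of all genes called higher. Eno1, the ubiquitous enolase, was at 942 FPKM in iQNP REST knockdown and 110 FPKM in iQNP control (8.53-fold), and at 796 FPKM in TAP REST knockdown and 167 FPKM in TAP control (4.75-fold). Ldhb, the lactate dehydrogenase subunit that prevails in heart, was called in TAP, with 274 FPKM in REST knockdown and 129 FPKM in control (2.12-fold). In iQNP it was at 168 FPKM in REST knockdown and 112 FPKM in control (1.49-fold). Gpi, the isomerase between hexokinase and phosphofructokinase, had log2 ratios of 0.40 in iQNP and 0.34 in TAP, and Eno2, the neuronal enolase, 0.42 in iQNP and 0.96 in TAP. Aldoc, the aldolase of brain, was at 594 FPKM in iQNP REST knockdown and 598 FPKM in iQNP control, and at 350 FPKM in TAP REST knockdown and 369 FPKM in TAP control. Pfkm, Pfkp, Eno3, Bpgm and Adpgk all had log2 ratios between -0.35 and 0.67.

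**Figure D2:**
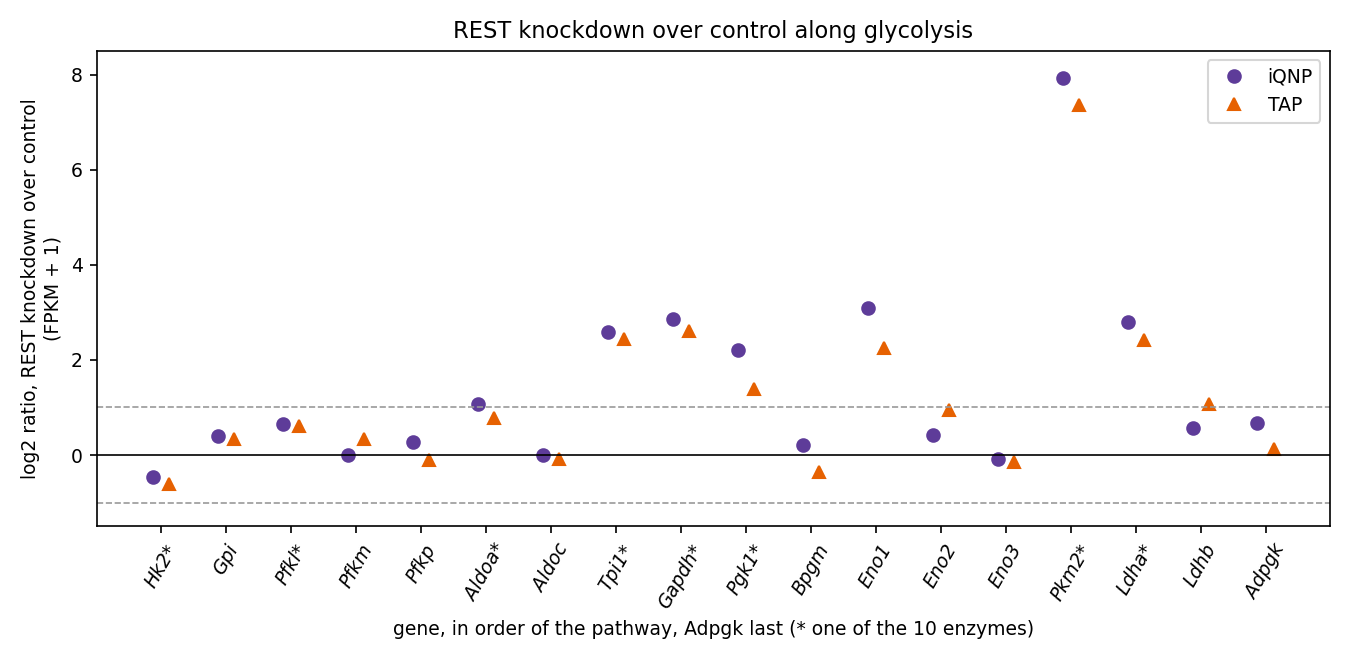
Log2 ratio of REST knockdown over control (after adding 1 FPKM) for 8 of the enzymes (starred) and the other glycolysis genes that passed the minimum in both conditions, in order of the pathway with Adpgk last. Circles are iQNP, triangles TAP, dashed lines a fold of 2 in either direction. Pkm2 stands apart at 7.92 in iQNP and 7.36 in TAP, and Hk2, Aldoc and Eno3 lie at or below 0 in both.

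The share of each isoenzyme within its own family in 1 group does not depend on how groups are scaled. It may depend on how reads shared with near-identical copies were assigned. RefSeq names 9 pseudogenes after Aldoa, 30 after Eno1, 30 after Ldha and 1 after Ldhb. It names 0 after Aldoc, Eno2, Eno3, Pfkl, Pfkm and Pfkp. Ldha made up 91.1% of the summed lactate dehydrogenase FPKM in iQNP REST knockdown and 68.5% in iQNP control, and 77.6% in TAP REST knockdown and 57.5% in TAP control. Aldoa made up 63.1% of the aldolases in iQNP REST knockdown and 44.8% in iQNP control, and 63.5% in TAP REST knockdown and 49.1% in TAP control. By these listed values Aldoc held the larger share in both control groups and Aldoa in both knockdown groups. In TAP control Aldoc held 50.9%, close to the share of Aldoa. Pfkl, Aldoa and Ldha were chosen by these contrasts and their isoenzymes were not, so nothing is read from their larger shares after knockdown. The part of the copies in these shares was not tested. Eno1 made up 88.4% of the enolases in iQNP REST knockdown and 51.3% in iQNP control, and 91.9% in TAP REST knockdown and 80.5% in TAP control. Among the phosphofructokinases Pfkm, the muscle type, held the largest share in all 4 groups, while Pfkl held 22.1% in iQNP REST knockdown and 15.6% in iQNP control, and 26.3% in TAP REST knockdown and 20.9% in TAP control.

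**Figure D3:**
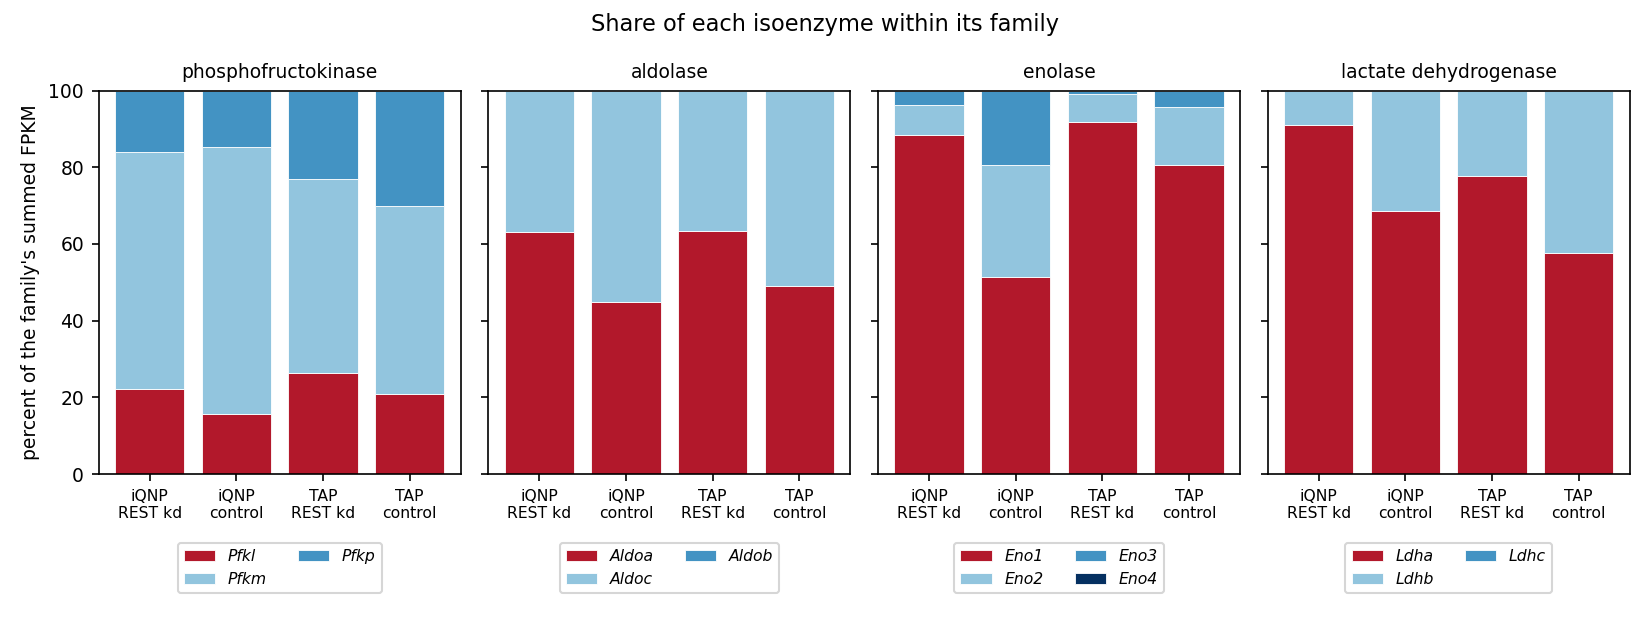
Percent of the summed FPKM of 4 enzyme families that each isoenzyme took in each group, drawn as stacked bars from 0 to 100 with REST knockdown left of its control. The red segments (Pfkl, Aldoa, Eno1 and Ldha) are taller in REST knockdown than in control in both conditions, as with Ldha at 91.1% and 68.5% in iQNP. Each bar rests on 1 pooled value per gene, and reads shared with copies of a gene may alter its share. Pfkl, Aldoa and Ldha were chosen by these contrasts.

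The genes that were higher also shared a feature that their choice had not used, the number of pseudogenes that RefSeq names after them (a symbol followed by ps and a number, GRCr8). Hk2 and Pfkl had 0, Tpi1 3, Pgk1 8, Aldoa 9, Pkm2 19, Ldha 30 and Gapdh 79, and Eno1, outside the list, had 30. Among the 8 genes Spearman's rho between this number and the log2 ratio was 0.83 in iQNP and 0.73 in TAP. Pearson's r, with log10 of the number plus 1, was 0.58 in iQNP and 0.56 in TAP. These are descriptions across genes that share their libraries and were chosen by these contrasts. Taking these enzymes and their isoenzymes together, the 8 genes with a named pseudogene had 7 called higher in each condition, with medians of 2.70 in iQNP and 2.33 in TAP. All of them but Eno1 and Ldhb were chosen by these contrasts, so nothing is read from this count. Eno1 was called in both conditions and Ldhb in TAP only. The genes with none had 0 called in either direction, 11 genes in iQNP with a median of 0.21 and 10 in TAP with a median of 0.02. Over all genes with no named pseudogene 12.1% were called higher in iQNP and 13.4% in TAP.

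Over all genes of each table the median log2 ratio also rose with the number of named pseudogenes. The 77 cytosolic ribosomal protein genes were not set apart here, and their part in the medians was not tested. The median log2 ratio was -0.04 in iQNP and -0.02 in TAP for genes with 0 named pseudogenes, 0.12 and 0.06 with 1, 0.41 and 0.31 with 2 to 4, 1.57 and 1.32 with 5 to 9, and 2.38 and 2.23 with 10 or more, over 87 genes of each table in the last class. Among genes with a mean of at least 50 FPKM the classes kept this order, with 2.80 in iQNP and 2.27 in TAP in the last one. Gapdh (2.87 in iQNP) and Ldha (2.80) lay within the quartiles of that class (0.96 to 5.98), whereas Pkm2 (7.92) was above them and Tpi1 (2.59) was above the upper quartile of its own class (1.27). Near-identical copies can take or share reads, so the values of Aldoa, Tpi1, Gapdh, Pgk1, Pkm2 and Ldha are uncertain, and the part of the copies in the differences was not tested. How reads that match several places were treated in each set of libraries is not given in the sources used here, so the folds of these genes, the 322-fold and 217-fold of Pkm2 with its 3.02 and 3.05 FPKM in control included, may not measure the RNA of the gene alone. A copy with a row of its own, Gapdh-ps1, was at 0.279 FPKM or below in all 4 groups.

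**Figure D4:**
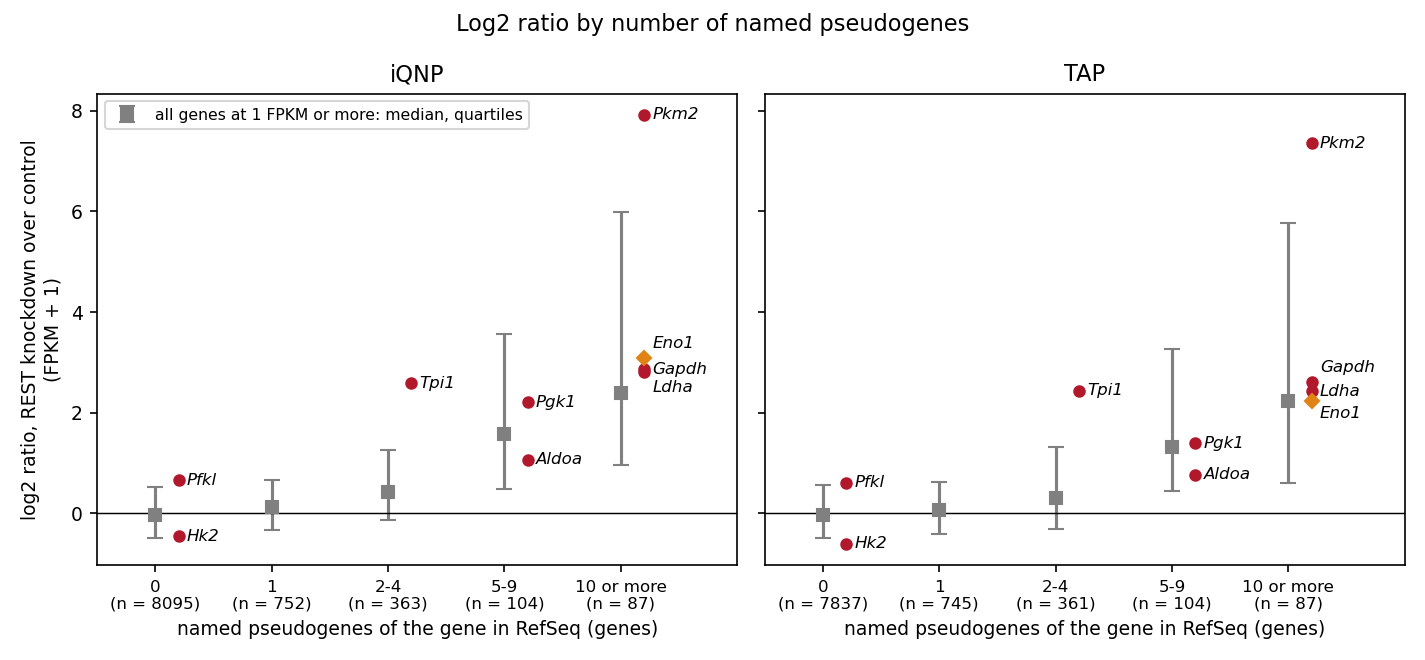
Log2 ratio of REST knockdown over control (after adding 1 FPKM) by the number of pseudogenes named after a gene in RefSeq, iQNP left and TAP right. Grey squares and bars are the median and quartiles of all genes at the minimum, red circles 8 of the enzymes, the orange diamond Eno1. The grey medians climb to 2.38 in iQNP and 2.23 in TAP at 10 or more, and Hk2 and Pfkl sit in the class of 0.

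The length of a gene's interval also went with the ratios over all genes. The median log2 ratio was 0.55 in iQNP and 0.51 in TAP for intervals of up to 5 kb, and -0.47 in iQNP and -0.33 in TAP for those over 50 kb, and among genes with no named pseudogene it was 0.43 and 0.39 against -0.48 and -0.33. The 6 genes called higher in iQNP spanned 3.87 kb (Gapdh) to 21.5 kb (Pkm2), whereas Pfkl spanned 23.2 kb and Hk2 49.5 kb. Aldoc, at 3.59 kb, was shorter than all of them and had log2 ratios of -0.01 in iQNP and -0.08 in TAP. Among the 8 enzymes that passed the minimum, Spearman's rho between the length and the log2 ratio was -0.48 in iQNP and -0.50 in TAP. It is a description of genes chosen by these contrasts. The part of the length in the differences was not tested.

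Tpi1 and Gapdh lie on the same stretch of chromosome 4 with Eno2, between 160891002 and 161286087, an interval of 395 kb with 21 genes in the tables. The 16 other genes there that passed the minimum had a median log2 ratio of 0.61 in iQNP and 0.55 in TAP, with the highest at 1.83 and 1.82 (Spsb2). Tpi1 and Gapdh were above all of these neighbours in both conditions. They were chosen by these contrasts and the neighbours were not, so nothing is read from this placing.

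The lists around glycolysis are read beside the shares of all genes called, 14.4% higher and 3.15% lower in iQNP and 15.4% higher and 6.82% lower in TAP, and with lists this short a count of 0 or 1 is near those shares. Of the glucose and lactate transporters, 9 passed the minimum in iQNP and 8 in TAP, and Slc2a6, a glucose transporter family member, was the one called higher in each, with 13.4 FPKM in iQNP REST knockdown and 2.50 FPKM in iQNP control, and 7.19 FPKM in TAP REST knockdown and 1.48 FPKM in TAP control. Slc2a1, the main glucose transporter of many cells, had log2 ratios of 0.30 in iQNP and 0.26 in TAP, and Slc16a1, a lactate carrier, -0.51 in iQNP and -0.89 in TAP. Of the 8 flux regulators that passed (the bifunctional Pfkfb enzymes and the kinases and phosphatases of pyruvate dehydrogenase) none was called in either direction, with medians of -0.16 in iQNP and -0.30 in TAP.

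In the neighbouring pathways the counts were again small. Of the 22 genes of pyruvate dehydrogenase and the citrate cycle, 3 were called higher in iQNP and 4 in TAP, and none lower, with medians of 0.01 in iQNP and 0.10 in TAP, and these counts are near the 14.4% and 15.4% of all genes called higher. They included Sdhc of succinate dehydrogenase, at 232 FPKM in iQNP REST knockdown and 78.8 FPKM in iQNP control, and Suclg1 of succinyl-CoA ligase, at 145 FPKM in iQNP REST knockdown and 69.6 FPKM in iQNP control. Sdhd had log2 ratios of 1.02 in iQNP and 1.05 in TAP, and Ogdh was called in TAP with 1.06. In gluconeogenesis 2 of 3 genes were called higher in iQNP and 3 of 3 in TAP. Pck2, the mitochondrial carboxykinase, was at 40.1 FPKM in iQNP REST knockdown and 6.47 FPKM in iQNP control, G6pc3 was at 85.1 and 34.6 FPKM in the same groups, and Pc (pyruvate carboxylase) had log2 ratios of 0.88 in iQNP and 1.53 in TAP. Pgls, the lactonase of the pentose phosphate pathway, was the one of 5 genes called there, at 34.4 FPKM in iQNP REST knockdown and 4.02 FPKM in iQNP control, with log2 ratios of 2.82 in iQNP and 2.39 in TAP. Pgls, G6pc3, Pc and Slc2a6 had no named pseudogene.

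On the branches to glycerol and serine, 3 of 8 genes were called higher in iQNP and 2 in TAP, beside 14.4% and 15.4% of all genes. Phgdh, the first enzyme of serine synthesis from a glycolytic intermediate, was at 278 FPKM in iQNP REST knockdown and 93.5 FPKM in iQNP control, and at 456 FPKM in TAP REST knockdown and 186 FPKM in TAP control. Shmt2, which makes glycine from serine in mitochondria, had log2 ratios of 1.31 in iQNP and 0.91 in TAP. The glycerol phosphate dehydrogenase genes Gpd1 and Gpd1l were each called in 1 condition, Gpd1 in iQNP (1.06) and Gpd1l in TAP (1.20).

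Regulators and targets of the hypoxia response, a known inducer of glycolytic genes, had calls in both directions. Of 7 regulators, Egln2, an oxygen-sensing prolyl hydroxylase, was called higher in both conditions (log2 ratios 1.11 in iQNP and 1.49 in TAP), and Myc, a known activator of glycolytic genes, was called lower in TAP, at 165 FPKM in TAP REST knockdown and 374 FPKM in TAP control. Hif1a, the hypoxia factor, was at 49.3 FPKM in iQNP REST knockdown and 64.9 FPKM in iQNP control. Of the hypoxia targets outside glycolysis, 2 of 13 were called higher and 1 lower in iQNP, and 1 of 12 higher and 2 lower in TAP, beside 14.4% and 15.4% of all genes called higher. Bnip3, a mitophagy receptor with 8 named pseudogenes, had log2 ratios of 2.98 in iQNP and 1.58 in TAP, and Ak4, a mitochondrial adenylate kinase, -1.73 in iQNP and -2.04 in TAP. Vegfa, the angiogenic growth factor, was called lower in TAP, at 37.8 FPKM in REST knockdown and 106 FPKM in control, and Ankrd37 was called higher in iQNP with 1.05.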

How the data were processed

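RNA-seq of 12 libraries of ribosome-depleted total RNA was aligned by the authors with TopHat2 to rn4 and quantified with Cuffdiff, as the submitters' processing notes state. The deposited values are FPKM, 1 per gene and group, and the authors' pooling leaves no value per library, so the depth behind each value and its counting error cannot be given and whole reads could not be recovered. The tables' own columns of fold change, statistic, p and q, and significance hold the study's comparisons and were not used. The deposited status column served an alternative filter only. Coordinates are as the tables give them. The 2 tables were normalised separately.

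Log2 ratios were computed after adding 1 FPKM, among genes with a mean of the 2 groups of at least 1 FPKM for calls, at a fold of 2. Of 16468 symbols, 15929 matched RefSeq (GRCr8), which gave names, named pseudogenes and promoter windows. Medians over the 9 genes with a row include that of Pgam1. The members and lists were chosen with earlier results of these data known. Named genes were the 10 enzymes, Rest, other glycolysis isoenzymes over the minimum, and of each other list up to 4 called genes by the larger ratio; genes named outside it (among them Slc2a1, Slc16a1, Hif1a, Spsb2, Gapdh-ps1, Pklr and cell markers) were chosen after their values were seen. Alternatives were another pseudocount, filters, scalings and folds, and, added after seeing the data, only genes without named pseudogenes. Calls were tested on simulated data with known changes and no noise, which checks the code and gives no error rate. Python 3 libraries were used (pandas, numpy, scipy, matplotlib).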

Additional observations from a re-analysis of the deposited data

How the results depend on the processing

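The counts of enzymes called higher (6 in iQNP and 5 in TAP) moved little under the planned settings, between 5 and 7 in iQNP and between 4 and 7 in TAP, with Aldoa the gene that left the iQNP calls under each scaling and Pgk1 the one that left the TAP calls with the same sum. None was called lower in iQNP, and Hk2 was called lower in TAP with the groups at the same summed FPKM (log2 ratio -1.14) or at a fold of 1.5. The log2 scaling factor, applied before 1 FPKM was added so that low genes move by less, was -0.53 in iQNP and -0.61 in TAP for the same sum, without ribosomal protein genes -0.20 and -0.16, and for the same median -0.09 and -0.12. The median log2 ratio of the enzymes (2.21 in iQNP and 1.39 in TAP) became 1.69 in iQNP and 0.79 in TAP with the same sum, 2.01 and 1.24 with that sum without ribosomal protein genes, and 2.12 and 1.27 with the same median. With a pseudocount of 0.1 FPKM it was 2.23 in iQNP and 1.74 in TAP, the TAP value being that of the Pgam1 row itself, whose control is listed at 0, and with genes of status OK only, which drops Pgam1, 2.40 in iQNP and 1.91 in TAP. With only genes that have no named pseudogene, an alternative added after seeing the data, Hk2 and Pfkl remained, 0 were called in iQNP and 0 in TAP, and the median was 0.097 in iQNP and 0.0039 in TAP. The cause was not tested. No paired analysis was possible because each group has a single deposited value, and no library could be left out for the same reason.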
